A study of Homo sapiens with 36 samples.

Results

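A group of 10 genes that carry fatty acids from the plasma membrane to their CoA esters was followed across 36 RNA-seq samples of HepG2 cells. The genes were picked by name from the deposited count table: FABP1 and DBI, which bind fatty acids and acyl-CoAs; CD36, SLC27A2, SLC27A4 and SLC27A5, which take part in uptake; and ACSL1, ACSL3, ACSL4 and ACSL5, which activate long-chain fatty acids. All 10 were found, out of 18932 genes in the table.

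A fatty acid that enters a hepatocyte is carried in the cytosol by liver fatty acid binding protein (FABP1) and is joined to coenzyme A by an acyl-CoA synthetase, after which it can be oxidised, esterified or elongated. The SLC27A proteins combine transport with synthetase activity, and the acyl-CoA formed is held by the acyl-CoA binding protein DBI. In liver, FABP1 is among the most abundant cytosolic proteins and a textbook target of the nuclear receptor PPAR alpha, ACSL1 and ACSL5 are the classic hepatic synthetases, and ACSL4 prefers highly unsaturated fatty acids such as arachidonic acid.

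HepG2 is a single hepatoma line, so the samples are cultures of 1 line and not different livers. Cells in serum-free medium received docosahexaenoic acid (DHA, 50 µM, bound to albumin), propionate (PRO, 70 µM), protocatechuic acid (PCA, 20 µM), DHA + PRO, DHA + PCA, or matching amounts of albumin, ethanol and DMSO without the compounds (Ctrl), for 6 h or 24 h. Each of the 12 groups holds 3 samples from independent cultures, and each sample is a pool of RNA from 3 culture replicates. The purpose was to learn what DHA does to hepatic gene expression and whether either co-treatment alters it.

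All 12 hepatocyte markers examined (ALB, APOA1 and HNF4A among them) had a median above 1 CPM (counts scaled to library size), with a summed level of 61100 to 83460 CPM. Of the endothelial markers 0 of 4 reached that level (summed level 0 to 1.36 CPM), of the macrophage markers 1 of 5 (0.168 to 3.34 CPM), and of the adipocyte markers 2 of 4 (4.92 to 24.9 CPM). Of the enterocyte markers 2 of 4 did (VIL1 and FABP2), with a summed level of 236 to 363 CPM. Total counts were 4659744 to 10788964 at 6 h and 5617341 to 42326734 at 24 h, where replicate 2 of DHA + PRO held 6.22 times the median count of the other 17 libraries. Replicate 1 of DHA + PRO at 6 h and replicate 1 of PRO at 24 h lay farthest from the other replicates of their groups (root mean square log2 distance 0.506 and 0.365). Calls of members that change without them are given both ways.

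The 3 members that were lower with DHA at 24 h were ACSL3, ACSL4 and FABP1, and the 250 bases before their annotated starts are shown because these genes were called at that time. The sequences are RefSeq windows on GRCh38.p14, read 5′ to 3′ on the gene's strand, at chr2:222860786-222861035 (plus strand) for ACSL3, chrX:109733258-109733507 (minus strand) for ACSL4 and chr2:88128063-88128312 (minus strand) for FABP1. Capitals mark exact matches to CCAAT, the NF-Y box, or to AGGTCA, the core element of many nuclear receptors, on either strand.
ACSL3: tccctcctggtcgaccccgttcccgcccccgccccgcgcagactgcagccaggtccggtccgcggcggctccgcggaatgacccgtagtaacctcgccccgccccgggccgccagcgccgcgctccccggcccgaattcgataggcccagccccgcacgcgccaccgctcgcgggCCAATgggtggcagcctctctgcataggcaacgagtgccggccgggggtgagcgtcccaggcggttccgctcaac
ACSL4: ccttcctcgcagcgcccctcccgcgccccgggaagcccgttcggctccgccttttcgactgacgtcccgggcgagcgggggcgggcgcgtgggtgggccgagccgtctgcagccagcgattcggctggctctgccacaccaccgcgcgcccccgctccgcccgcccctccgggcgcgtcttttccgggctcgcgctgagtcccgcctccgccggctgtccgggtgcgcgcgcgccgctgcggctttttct
FABP1: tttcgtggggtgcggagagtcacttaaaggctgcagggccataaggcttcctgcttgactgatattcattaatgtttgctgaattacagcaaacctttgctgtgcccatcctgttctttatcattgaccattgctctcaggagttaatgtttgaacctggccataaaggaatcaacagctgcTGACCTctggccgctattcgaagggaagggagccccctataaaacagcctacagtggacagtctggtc

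The windows did not share a motif among those searched. ACSL3 held CCAAT at position -75 from its start, a motif present in 34.6% of all 35116 windows (each 250 bases before a start and 50 after it). FABP1 held AGGTCA on the minus strand at -68, and a second copy on the plus strand at 12 bases into the transcript. AGGTCA occurred in 13.8% of all windows. ACSL4 held neither of them, nor TCACNCCAC, the core of the sterol regulatory element (1.13% of all windows), nor DR1, a direct repeat of AGGTCA to which PPAR alpha binds (0.0228%). AGGTCA is part of DR1, and overlapping matches were allowed. Among the 23 windows of the 10 members, 0 held DR1, 1 held the sterol element core (ACSL1, at -242) and 7 held CCAAT. These are matches of letters and not measured binding. Only exact copies of DR1 were counted, and 8 of all 35116 windows held one. The count of 0 among 23 windows therefore cannot set the members apart from other genes. Copies that differ from DR1 in some letters were not searched for. Whether FABP1 or another member has such a PPAR alpha site was not tested.

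Per length, the members spanned 3 orders of magnitude in Ctrl cells at 24 h. Levels between genes are compared in RPKM, the CPM divided by the counted length in kilobases. FABP1 stood first at 1653 ± 187 RPKM (SD, n = 3), followed by DBI at 485 ± 48.0, ACSL4 at 102 ± 7.06, ACSL3 at 80.8 ± 2.61 and ACSL5 at 35.8 ± 2.78. These 5 values were separated from one another by more than their SDs. ACSL1 (17.01 ± 0.921 RPKM) and SLC27A2 (15.9 ± 1.59) did not differ beyond their spread. SLC27A4 had 11.1 ± 1.86, SLC27A5 5.67 ± 1.12 and CD36 1.298 ± 0.0756 RPKM. CD36, the fatty acid translocase, was thus near the detection limit, with 4 to 85 reads per sample, and its comparisons have little precision. At 6 h the order of the first 2 genes was not resolved, since Ctrl cells held 438 ± 72.7 RPKM of FABP1 and 477 ± 53.0 of DBI.

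**Figure D1:**
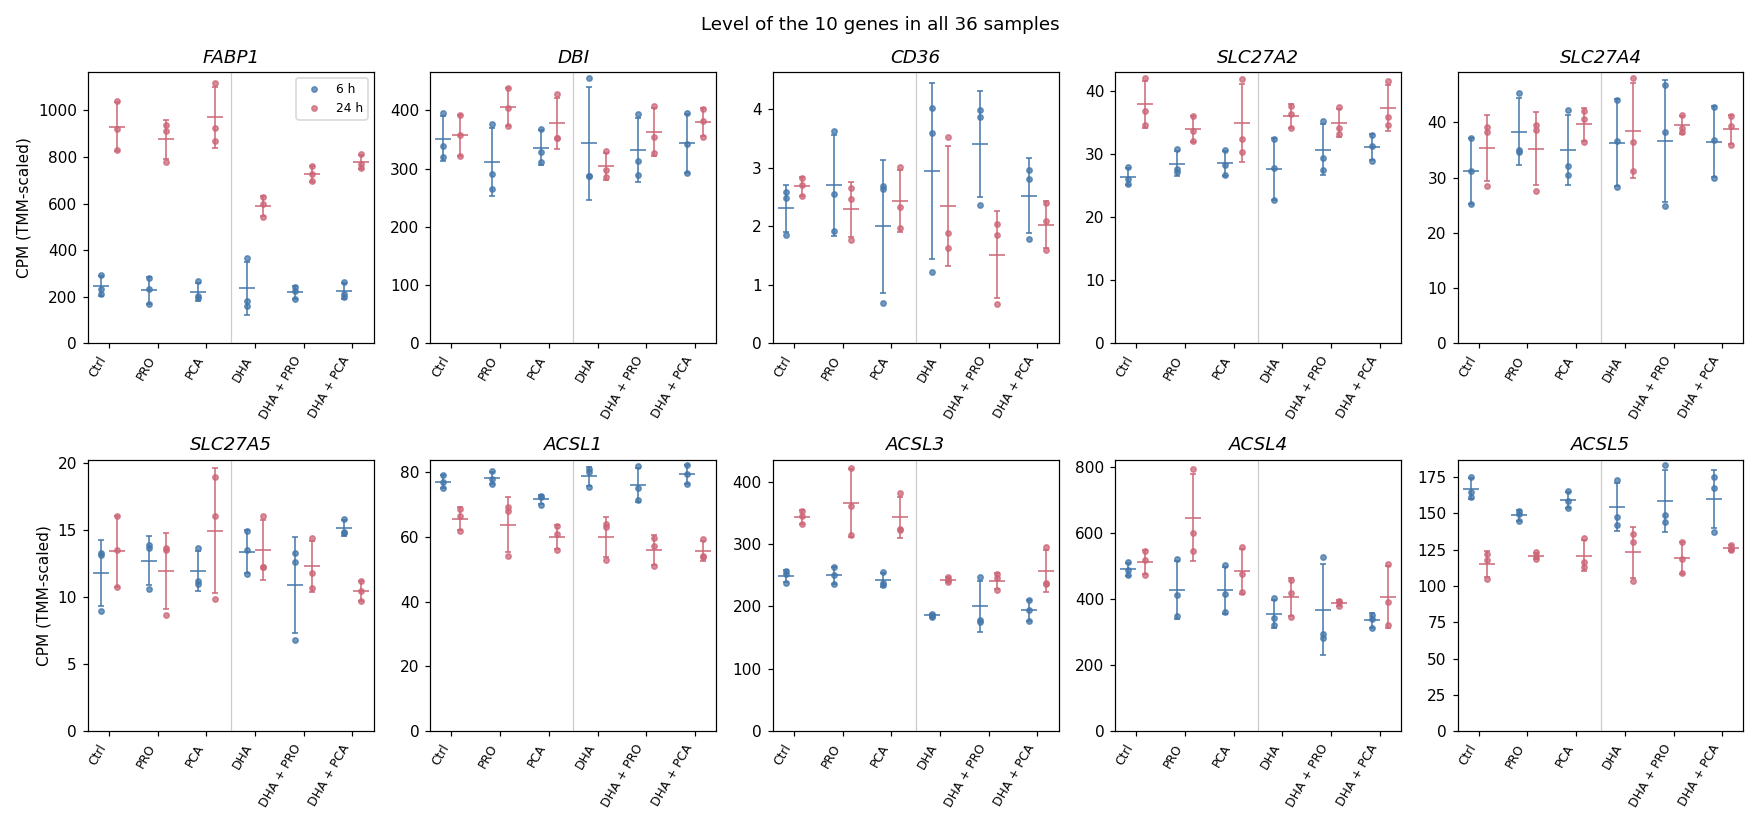
Level of each of the 10 genes (CPM on scaled library sizes, linear axis from 0) in every sample of the 6 treatments, at 6 h (blue) and 24 h (red). Points are samples, the short horizontal line is the mean of 3 and the bars are SD; treatments without DHA stand left of the grey line. ACSL3 at 24 h lies between 226 and 296 CPM in all samples with DHA and between 315 and 422 CPM in all samples without it, and FABP1 rises between 6 h and 24 h in every treatment.

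In the pooled DHA effect at 24 h, 2 of the 4 long-chain acyl-CoA synthetases among the members were called, where 1.23% of the 11893 genes tested were called. ACSL3 and ACSL4 fell, whereas ACSL1 (log2 fold change -0.15, 95% interval -0.27 to -0.02) and ACSL5 (0.05, -0.07 to 0.17) did not pass the test. The effect of DHA was pooled over 3 contrasts: DHA against Ctrl, DHA + PRO against PRO, and DHA + PCA against PCA, 9 samples with DHA and 9 without. A gene was called at a Benjamini-Hochberg adjusted p of at most 0.05 in edgeR's quasi-likelihood test with an average log2 CPM above 0.

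ACSL3, a synthetase of the endoplasmic reticulum and of lipid droplets, was measured at 346, 332 and 353 CPM in Ctrl at 24 h. The 3 samples with DHA alone had 247, 240 and 242 CPM. Every DHA sample was below every Ctrl sample. The share of all genes separated with 3 samples a side was not counted, here or for the groups of 3 compared below. With DHA + PRO, ACSL3 stood at 246, 252 and 226 CPM, and with DHA + PCA at 236, 296 and 238 CPM. Its values were 422, 360 and 315 CPM with PRO and 324, 381 and 323 CPM with PCA. The 9 samples with DHA and the 9 without did not overlap. ACSL3 was the 1 member separated in this way, where 0.37% of the 11893 genes tested at 24 h were separated. Its pooled log2 fold change was -0.51 (SE 0.060, fold 0.704, adjusted p = 7.98e-06 by edgeR). Within the samples of the earlier series of library numbers in the labels the mean difference was -0.51, and within the later series -0.49 (log2 CPM; 12 and 6 samples).

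At 6 h ACSL3 was already lower. Ctrl samples had 257, 238 and 251 CPM and DHA samples 185, 183 and 188 CPM, with no overlap between these 2 groups. Over all 9 samples a side, the range was 175 to 248 CPM with DHA (median 185) and 234 to 263 CPM without (median 250). The ranges met in 1 sample with DHA, replicate 1 of DHA + PRO at 248 CPM. The pooled log2 fold change was -0.36 (SE 0.066, adjusted p = 0.0240 by edgeR), and ACSL3 was the 1 member called at 6 h, where 0.202% of 11872 genes tested were called and 0.126% did not overlap (0 members). This call was lost when any of 9 single libraries was left out (adjusted p up to 0.0678, without replicate 2 of DHA + PCA; 0.0502 without replicate 1 of Ctrl, 0.0531 without replicate 3 of DHA, 0.0516 and 0.0503 without replicates 1 and 2 of PRO, 0.0627 without replicate 1 of PCA, 0.0663 and 0.0530 without replicates 2 and 3 of DHA + PRO, and 0.0631 without replicate 3 of DHA + PCA), with a log2 fold change between -0.42 and -0.33 in all 18 such fits. The change of the DHA effect on ACSL3 from 6 h to 24 h was -0.15 (95% interval -0.33 to 0.03), which did not pass the test.

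ACSL4, the synthetase with a preference for arachidonic and other highly unsaturated acids, was measured at 545, 518 and 475 CPM in Ctrl at 24 h and at 458, 419 and 345 CPM with DHA. The DHA samples lay below the Ctrl samples. With DHA + PRO it stood at 379, 392 and 394 CPM against 794, 601 and 545 CPM with PRO, and with DHA + PCA at 391, 507 and 322 CPM against 477, 557 and 421 CPM with PCA. The PRO groups were the farthest apart, with the highest PRO value in replicate 1, the library that lay apart. The PCA groups overlapped. Over all samples the range was 322 to 507 CPM with DHA (median 392) and 421 to 794 CPM without (median 545). The pooled log2 fold change was -0.44 (SE 0.082, fold 0.737, adjusted p = 0.00298 by edgeR), with -0.44 in each of the earlier and later series of libraries.

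At 6 h the pooled value of ACSL4 was -0.35 (SE 0.110, adjusted p = 0.752) and was not called. Replicate 1 of DHA + PRO read 528 CPM, above the other 2 samples of that group at 294 and 283 CPM. Without this library the value was -0.46 (SE 0.080, adjusted p = 0.00794), and ACSL4 was then called. In the other samples with DHA at 6 h it lay at 343, 403 and 322 CPM for DHA and at 353, 341 and 312 CPM for DHA + PCA, whereas Ctrl had 511, 473 and 488 CPM.

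ACSL1, the main synthetase of oxidative and storage tissues, had 68.8, 66.4 and 61.8 CPM in Ctrl at 24 h, and 64.0, 63.1 and 52.9 CPM with DHA. These samples overlapped. Over 9 samples a side its range was 50.9 to 64.0 CPM with DHA and 54.1 to 69.3 CPM without (adjusted p = 0.409 by edgeR for the pooled effect). ACSL5, a synthetase of mitochondria and endoplasmic reticulum, had a median of 125 CPM with DHA and 119 CPM without at 24 h, and the ranges overlapped almost entirely (103 to 136 and 105 to 133 CPM).

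**Figure D2:**
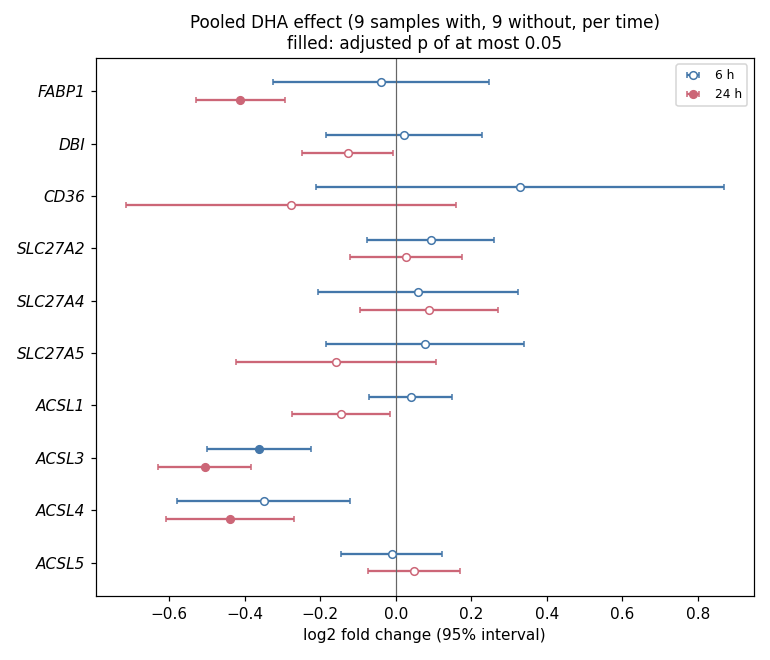
Log2 fold change of the 10 genes for the pooled DHA effect, with its 95% interval, at 6 h (blue) and 24 h (red); filled points passed an adjusted p of 0.05. At 24 h the intervals of ACSL3, ACSL4 and FABP1 lie below 0 with filled points, and CD36 has the widest interval.

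The make-up of the long-chain synthetase RNA is given as a description, with no test. The sum of ACSL1, ACSL3, ACSL4, ACSL5 and the related ACSL6 was 238 ± 9.35 RPKM in Ctrl at 24 h and 195 ± 18.9 with DHA (SD, n = 3). ACSL3 and ACSL4 made up 76.8% ± 0.991 of it in Ctrl. DHA alone gave a share of 71.1% ± 1.36. The combination with PRO gave 71.3% ± 1.56, against 78.9% ± 2.63 for PRO, and that with PCA 71.3% ± 3.39, against 76.0% ± 1.61 for PCA. Over the 9 samples a side the share was 68.2% to 74.9% with DHA and 74.3% to 81.2% without, so that the ranges met at their edges. At 6 h the same share was 68.1% ± 0.306 in Ctrl and 62.2% ± 2.62 with DHA, and the ranges of 59.7% to 67.4% with DHA and 65.4% to 70.9% without overlapped. The sum follows from members already described.

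**Figure D3:**
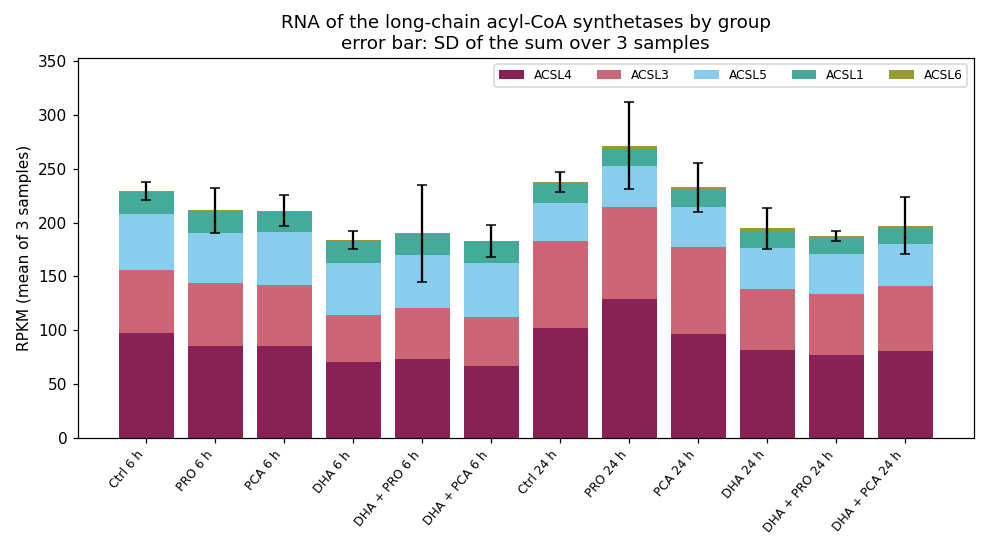
Stacked mean level (RPKM, 3 samples a group) of ACSL4, ACSL3, ACSL5, ACSL1 and ACSL6 in the 12 groups, with the SD of the sum as error bar. The ACSL4 and ACSL3 segments are shorter in the groups with DHA, and those of ACSL5 and ACSL1 keep similar heights within a time.

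FABP1, the cytosolic carrier of long-chain fatty acids in liver, also fell with DHA at 24 h. Ctrl samples had 1041, 832 and 919 CPM, and samples with DHA alone had 629, 545 and 598 CPM. All DHA samples were lower than all Ctrl samples. DHA + PRO gave 727, 760 and 695 CPM against 780, 910 and 936 CPM with PRO, and DHA + PCA gave 772, 811 and 754 CPM against 927, 1116 and 867 CPM with PCA. Within each of these contrasts, of 3 samples a side, the groups did not overlap, but the share of all genes separated so was not counted. The pooled ranges met (545 to 811 CPM with DHA, 780 to 1116 CPM without). The pooled log2 fold change was -0.41 (SE 0.057, fold 0.751, adjusted p = 7.14e-05 by edgeR), and -0.40 and -0.42 within the earlier and later series of libraries.

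At 6 h no such difference was detectable for FABP1, at -0.04 (95% interval -0.33 to 0.25). Its DHA samples had 365, 162 and 181 CPM and its Ctrl samples 293, 214 and 233 CPM, so that a single DHA sample exceeded all of Ctrl while the others were below it. The change of the DHA effect from 6 h to 24 h was -0.38 (95% interval -0.70 to -0.06, unadjusted p = 0.0204) and did not pass across all genes (adjusted p = 1.00 by edgeR, quasi-likelihood). Of the genes tested, 0% were called in that comparison, with 368 at an unadjusted p under 0.05.

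DBI, the acyl-CoA binding protein, was 392, 321 and 357 CPM in Ctrl at 24 h and 330, 298 and 285 CPM with DHA, and the groups overlapped. The pooled value was -0.13 (95% interval -0.25 to -0.01, adjusted p = 0.471 by edgeR). DHA + PRO gave 408, 354 and 326 CPM against 438, 372 and 404 CPM with PRO, and DHA + PCA gave 382, 403 and 354 CPM against 353, 428 and 353 CPM with PCA. These groups overlapped as well. At 6 h DBI gave 0.02 (-0.19 to 0.23).

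None of the 4 uptake genes was called for DHA at either time, where the pooled effect called 0.202% of all genes tested at 6 h and 1.23% at 24 h. SLC27A2, a very-long-chain acyl-CoA synthetase and transporter, had a median of 35.9 CPM with DHA and 34.7 CPM without at 24 h (pooled log2 fold change 0.03, 95% interval -0.12 to 0.18). SLC27A4, the fatty acid transport protein found in many tissues, had 38.9 and 38.7 CPM (0.09, -0.09 to 0.27). Their intervals include changes of up to 0.27 on the log2 scale. SLC27A5, which also activates bile acids, had 11.8 and 13.5 CPM (-0.16, -0.42 to 0.11), and CD36 had 1.88 and 2.52 CPM (-0.28, -0.72 to 0.16). These last 2 intervals are wider, at the lower read numbers of SLC27A5 (52 to 492 reads per sample) and CD36. At 6 h the pooled values were 0.09 for SLC27A2, 0.06 for SLC27A4, 0.08 for SLC27A5 and 0.33 for CD36, with every interval including 0.

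In all, 3 of 10 members were called in the pooled DHA effect at 24 h, each lower, where 1.23% of 11893 genes tested were called (34 higher, 112 lower). Since the members were chosen with earlier results of these data known, this count describes them and is not a test of the group.

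Each treatment with DHA was next set against Ctrl alone at 24 h, to see which calls each gave by itself. These 3 comparisons share the Ctrl samples. DHA alone called FABP1 (log2 fold change -0.65, SE 0.099, adjusted p = 0.00166) and ACSL3 (-0.50, SE 0.103, adjusted p = 0.0413) by edgeR, 2 of 10 members against 0.193% of all genes tested. With DHA + PRO, ACSL3 was called (-0.51, SE 0.103, adjusted p = 0.0172), 1 of 10 members against 0.395% of all genes. With DHA + PCA, 0 of 10 members were called against 0.286% of all genes; 4 members had an unadjusted p under 0.05, ACSL3 among them (-0.42, SE 0.104, adjusted p = 0.101), and DESeq2 called 1. With the replicate number as a block in the fit, ACSL3 was called with DHA + PCA (adjusted p = 0.0136 by edgeR) and FABP1 with DHA + PRO (0.0435, against 0.182 without the block). ACSL4 had -0.33, -0.40 and -0.33 in the 3 comparisons, none of them called. At 6 h, each of DHA, DHA + PRO and DHA + PCA against Ctrl gave 0 members among 0.0168% of genes called; ACSL3 with DHA alone was -0.43 (SE 0.114, adjusted p = 0.946).

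The call of ACSL3 with DHA alone at 24 h was lost without any 1 of 11 libraries (adjusted p 0.0510 to 0.210), including each of the Ctrl and DHA samples, replicates 1 and 3 of PCA and each of DHA + PRO. That with DHA + PRO was lost without any 1 of the 6 samples it compares (0.0620 to 0.165). Its log2 fold change stayed between -0.55 and -0.47 in both comparisons. FABP1 with DHA alone was called in all 18 of these fits.

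**Figure D4:**
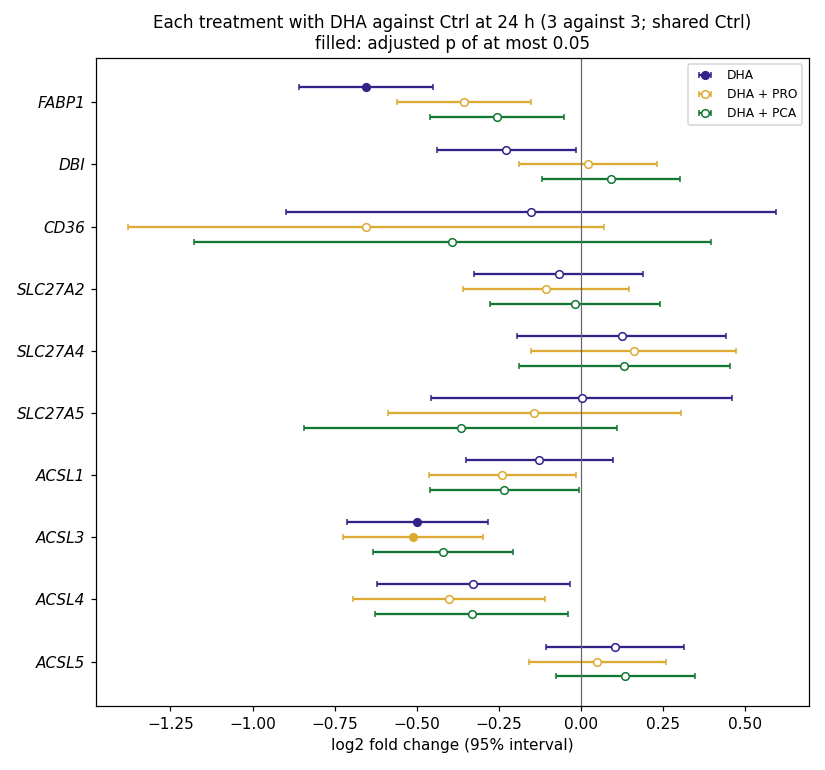
Log2 fold change against Ctrl at 24 h, with its 95% interval, of the 10 genes for DHA (dark blue), DHA + PRO (yellow) and DHA + PCA (green), 3 samples against the same 3 Ctrl samples; filled points passed an adjusted p of 0.05. FABP1 has values of -0.65, -0.36 and -0.26, and ACSL3 values of -0.50, -0.51 and -0.42.

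PRO alone and PCA alone gave 0 called members at 6 h and at 24 h, against 0% of all genes tested in each of these comparisons by edgeR (715 and 454 genes at an unadjusted p under 0.05 at 24 h, 196 and 86 at 6 h). The member farthest from 0 that had an interval excluding it was ACSL4 with PRO at 24 h, at 0.33 (95% interval 0.04 to 0.62, adjusted p = 0.788). Its 3 PRO samples, at 545 to 794 CPM, reached or exceeded the highest Ctrl sample at 545 CPM. The highest value belonged to replicate 1, the library named above as lying apart. The other 2 PRO samples had 601 and 545 CPM, and the interval without replicate 1 is not given.

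Adding PRO or PCA to DHA gave 0 called members at 24 h and at 6 h. Of all genes, 0% were called in these comparisons and in the interactions of DHA with PRO and with PCA. At 24 h, 527 and 276 genes had an unadjusted p under 0.05 by edgeR against DHA alone, and 595 and 210 in the interactions. The counts at 6 h were 168, 151, 217 and 108. Of the members, 2 had such a p in each comparison with DHA alone at 24 h, 1 in each interaction at 24 h and 0 at 6 h. For ACSL3 the difference from DHA alone was -0.01 (95% interval -0.23 to 0.20) with PRO and 0.08 (-0.14 to 0.29) with PCA. For ACSL4 it was -0.07 (-0.37 to 0.22) and -0.01 (-0.30 to 0.29). For FABP1, all DHA + PRO samples (695 to 760 CPM) and DHA + PCA samples (754 to 811 CPM) were higher than all samples with DHA alone (545 to 629 CPM), at log2 differences of 0.30 (95% interval 0.09 to 0.50) and 0.40 (0.19 to 0.60). Neither passed across all genes (adjusted p = 0.999 for both by edgeR). DBI moved with it, by 0.25 and 0.32. Both are short transcripts, with counted lengths of 563 and 736 bp, and the 66 well expressed genes under 800 bp had a median of 0.13 and 0.16 in the same comparisons, against 0.02 and 0.01 for all 1671 genes of that expression. The part of transcript length in the values of FABP1 and DBI was not tested.

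Time in culture moved more of the members than any treatment did. Between 6 h and 24 h in the samples without DHA, 6 of 10 members were called, in a comparison in which 48.4% of 12046 genes were called (2928 higher, 2903 lower), so the share among members is near that of all genes. Time since the change to serum-free medium and time with the vehicle, PRO or PCA cannot be told apart here.

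FABP1 had the largest time difference of the members. It rose from 293, 214 and 233 CPM in Ctrl at 6 h to 1041, 832 and 919 CPM at 24 h, without overlap. Over 9 samples a time the log2 fold change was 2.00 (SE 0.115, fold 3.99, adjusted p = 5.40e-16 by edgeR). The fall of FABP1 with DHA at 24 h was thus set against a rise, and the DHA samples at 24 h (545 to 811 CPM) were still above every sample at 6 h (162 to 365 CPM).

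Synthetases moved in both directions with time. ACSL3 rose by 0.50 on the log2 scale (SE 0.064, adjusted p = 5.78e-08) and ACSL4 by 0.28 (SE 0.103, adjusted p = 0.0246), while ACSL5 fell by 0.41 (SE 0.062, adjusted p = 1.36e-06) and ACSL1 by 0.26 (SE 0.056, adjusted p = 0.000235), all by edgeR. Ctrl samples of ACSL5 went from 175, 162 and 164 CPM to 118, 122 and 105 CPM, with no overlap. The ACSL4 call was lost without replicate 3 of PRO (adjusted p = 0.0626) or of PCA (0.0603) at 6 h, or without replicate 1 of PRO (0.0748) or replicate 2 of PCA (0.0629) at 24 h. The reads of ACSL3 may include those of the antisense transcript ACSL3-AS1, with which it shares 403 exonic bases, and ACSL5 shares 144 with ZDHHC6 on the other strand; the TruSeq v2 kit named in the methods does not keep strand, so reads of such partners cannot be told apart.

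SLC27A2 rose by 0.36 (SE 0.075, adjusted p = 0.000191), from 26.1, 25.4 and 27.9 CPM in Ctrl to 36.9, 42.1 and 34.7 CPM. The groups did not overlap. It shares 557 exonic bases with ATP8B4 on the opposite strand. DBI (0.19, SE 0.086, adjusted p = 0.0643), SLC27A4 (0.08), SLC27A5 (0.14) and CD36 (0.09) were not called.

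**Figure D5:**
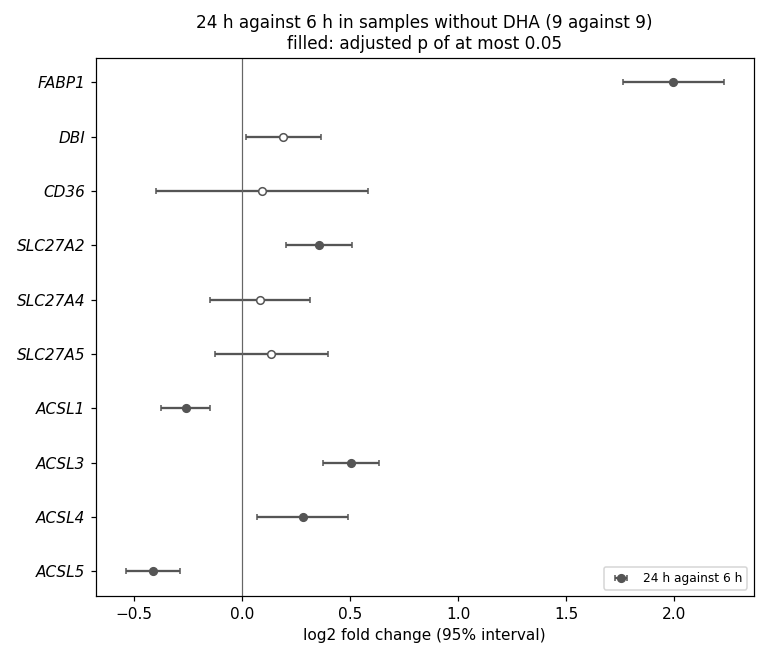
Log2 fold change between 24 h and 6 h in the samples without DHA (9 against 9), with its 95% interval, for the 10 genes; filled points passed an adjusted p of 0.05. FABP1 lies at 2.00, and the synthetases lie on both sides of 0.

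The neighbouring steps of the pathway were described from lists of related genes. Among 15 other acyl-CoA synthetases, 11 were tested at 24 h, and the pooled DHA effect called 2 lower and 1 higher, beside 1.23% of all genes tested (34 higher, 112 lower; median log2 fold change -0.03, against 0.01 for all genes). All 3 belong to the short-chain branch, which activates acetate and propionate rather than long-chain acids. ACSS2, the cytosolic acetyl-CoA synthetase, stood at 143 to 166 CPM with DHA and 241 to 287 CPM without, with no overlap, at -0.76 (SE 0.048, adjusted p = 1.84e-10 by edgeR). Against Ctrl it was called for DHA alone (-0.87), DHA + PRO (-0.79) and DHA + PCA (-0.79). ACSS3, a mitochondrial enzyme that prefers propionate, gave -0.24 (SE 0.052, adjusted p = 0.0157). ACSS1, the mitochondrial acetyl-CoA synthetase, was higher at 0.31 (SE 0.067, adjusted p = 0.0130 by edgeR). It stood at 80.09 to 99.85 CPM with DHA and 55.54 to 79.13 CPM without, also with no overlap. Of all genes tested at 24 h, 0.37% were separated in this way.

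Of the other carriers and uptake partners, 0 passed the edgeR test for DHA at 24 h. These were 2 of 9 fatty acid binding proteins with enough reads (FABP5 and FABP2), 5 of 5 acyl-CoA binding proteins of the ACBD family, and 5 of 14 transporters and uptake partners. None of these 12 genes had an unadjusted p under 0.05. Of 12 acyl-CoA thioesterases, which release the free acid again, 9 were tested, 0 were called and 0 had an unadjusted p under 0.05. Of all genes tested, 1.23% were called and 9.88% had an unadjusted p under 0.05 by edgeR. With so few genes in these lists, counts of 0 are near those shares and do not set the lists apart.

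Most of the other textbook target genes of PPAR alpha did not pass the test. Of 22 listed, 17 were tested, and 1 was called with DHA at 24 h, beside 1.23% of all genes tested. The gene called was CREB3L3, a liver transcription factor, at 0.63 (SE 0.104, adjusted p = 0.000784 by edgeR). The median over the 17 was 0.16, against 0.01 for all genes, and 11 of 17 were positive. PLIN2, a lipid droplet coat protein, gave 0.16 (SE 0.067, adjusted p = 0.356) and was not called.

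With time, in the samples without DHA, 6 of 12 other synthetases tested rose and 0 fell, among them ACSM5 (1.86), ACSL6 (1.34) and ACSS2 (1.21). Of 9 thioesterases 5 rose, including BAAT, which conjugates bile acids, at 1.22; ACOT1 and ACOT2 (0.50 and 0.40) are near-identical copies and their reads may be split between them. Of 17 PPAR alpha list genes 8 rose and 0 fell, with PLIN2 at 0.93. Of 5 transporters and uptake partners 3 rose, with SLC27A1 at 0.90, and GOT2 fell by 0.23. Among the acyl-CoA binding proteins, ACBD7 (fell by 0.60) and ACBD6 (fell by 0.26) were lower. These shares stand beside the 48.4% of all genes called.

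Over the means of the 12 groups, the gene whose pattern was most like that of ACSL3 was SHANK2 (Pearson r = 0.974 of mean log2 CPM), followed by ACLY, the ATP-citrate lyase that supplies acetyl-CoA for fatty acid synthesis (0.973), and SCD, the stearoyl-CoA desaturase (0.972). For FABP1 they were TNFAIP3 (0.995), MYADM (0.995) and CLIC1 (0.994), and for ACSL4 FKBP14 (0.936), TMEM135 (0.933) and PGM3 (0.921). SLC27A2 was most like FGGY (0.977), RARS2 and RRAGD, ACSL1 most like FAM63A (0.973), UBE2A and METTL7A, and ACSL5 most like RABGEF1 (0.993), CTR9 and FERMT2. The 12 points share their libraries and are dominated by the difference between the times, and the genes were the highest among 12046, so these values are descriptions.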

How the data were processed

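RNA-seq was performed on HepG2 cells in 12 groups of 3 samples. Per the labels and the study's methods, the authors enriched mRNA, sequenced the libraries, aligned the reads to hg19 with STAR (version not given in the sources used here) and processed them with iRNA-seq. The deposited values are raw read counts per RefSeq gene, without normalization. Gene positions and counted lengths (other units, in base pairs) come from the same deposited table and served for RPKM. Starts in the table count from 0, and 1 was added.

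The counts were analysed with edgeR 4.0.16 in R 4.3.3: genes kept by filterByExpr, TMM scaling, quasi-likelihood F test, 1 fit per time over its 18 samples and 1 joint fit over all 36 for the time comparisons. Adjustment followed Benjamini-Hochberg across every gene in a fit, and a call required both an adjusted p no higher than 0.05 and average log2 CPM over 0. SE values are the log2 fold change divided by the root of F. CPM in the text uses the joint fit's scaled library sizes, and 0.5 CPM was added before logs for patterns and differences within library series.

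Groups and replicate numbers came from the labels, and no sample was left out of the main fits. Of the 630 pairs of libraries none agreed within sampling noise (lowest chi-square per degree of freedom 1.93). Depth limits mainly CD36, and no molecular identifiers are described, so read counts are not molecules. Bulk RNA cannot tell fewer cells of a kind from less RNA per cell. Figures were drawn with matplotlib 3.10.9.

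The members and gene lists were chosen with earlier results of these data known. Named genes are all 10 members, list genes called with DHA at 24 h (up to 8 a list) and, for each member called anywhere, the 3 genes most like it over the group means. Other list genes named (FABP2, FABP5, PLIN2 and the examples for the time comparison) were chosen after their values were seen. Alternatives were DESeq2 1.42.0, other scalings, no filter, no expression limit, blocks for replicate number or library series, fits restricted to the compared groups, and leaving out each library.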

Additional observations from a re-analysis of the deposited data

How the results depend on the processing

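The calls of ACSL3, ACSL4 and FABP1 in the pooled DHA effect at 24 h held in all 27 alternatives, with log2 fold changes of -0.55 to -0.47, -0.51 to -0.38 and -0.44 to -0.38. The number of members called moved mainly in the comparisons with 3 samples a side. For DHA + PCA against Ctrl at 24 h it was 1 in place of 0 with DESeq2 and without the filter on low counts. It was also 1 with the replicate block, with a block for library series and with only the groups compared. Without the library that lay apart at 24 h, replicate 1 of PRO, it was 1 as well. Leaving out single libraries gave 0 to 1. For DHA + PRO against Ctrl it was 2 in place of 1 with the replicate block and with only the groups compared, and 0 to 1 without single libraries; for DHA against Ctrl it was 1 to 2 without single libraries. The pooled effect at 6 h gave 2 in place of 1 without replicate 1 of DHA + PRO, and 0 to 2 without single libraries. The 2 libraries that lay apart were chosen after seeing the data, and each fit per time held 1 of them. Within a time that alternative therefore repeats 1 of the fits without a single library, also among the 27 alternatives. The time comparison gave 7 members in place of 6 with the replicate block, and 5 to 7 without single libraries. The cause of these shifts was not tested.

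Values near 0 changed sign. In the pooled effect at 6 h, ACSL5 was 0.0031 with the library series block and -0.046 to 0.023 without single libraries. DBI was -0.021 without replicate 1 of DHA + PRO, and -0.059 to 0.079 over all single libraries left out. FABP1 was then -0.19 to 0.029 and SLC27A4 -0.014 to 0.14. At 24 h SLC27A2 was -0.0043 to 0.078. None of these was called.

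Replicate numbers are not stated to mark a shared culture day, although the column names number the pooled cultures alike in every treatment. Of 45 same-numbered pairs at each time, 36 at 6 h and 34 at 24 h had deviations correlated above 0.1, and 16 and 17 of 18 samples correlated best with their own number, a hint from the data only. With the replicate block the pooled effect called 64 genes at 6 h and 367 at 24 h, in place of 24 and 146. DESeq2 called 45 and 222, and the library series block 46 and 203. The fit without the library that lay apart at each time called 36 and 223. Over the alternatives other than leaving out single libraries, DHA, DHA + PRO and DHA + PCA against Ctrl at 24 h called 21 to 77, 40 to 135 and 34 to 130 genes, in place of 23, 47 and 34. In these comparisons the replicate block added FABP1 with DHA + PRO (adjusted p = 0.0435 by edgeR) and ACSL3 with DHA + PCA (0.0136). The fit on only the groups compared added ACSL4 with DHA + PRO (0.0148).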
